A study of Sus scrofa with 16 samples.

Results

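Glycolysis enzymes and glucose transporters were followed in pig subcutaneous adipose tissue. The set of 10 genes named for it holds the glucose transporters SLC2A1 and SLC2A4, hexokinase HK2, and the enzymes PFKM, ALDOA, TPI1, PGK1, PKM2, LDHA and LDHB. A probe belonged to the set when its gene name on the array was that of a member and 8 or more of the 16 arrays read it well above background. This gave 34 of the 43603 non-control probes on the array and 9 of the 10 genes. All 34 probes were well above background on all 16 arrays. Probes with a member's name that failed the filter were not counted. No probe carries the name ALDOA, and that gene was not analysed here. The samples came from 16 pigs of 20 kg body weight with free access to feed, 8 of the low-RFI line (RFIneg in the labels) and 8 of the high-RFI line (RFIpl). Residual feed intake (RFI) is the gap between what an animal eats and what its growth and upkeep predict. Each pig was read on 1 single-colour array, and the labels give neither the age of the pigs nor their litters.

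Glycolysis splits glucose into pyruvate in the cytosol and yields ATP without oxygen. In adipocytes, glucose enters through SLC2A1 at a basal rate and through SLC2A4, which insulin brings to the cell surface. Hexokinase traps it as glucose 6-phosphate, and the pathway supplies the glycerol phosphate and part of the acetyl-CoA used to build triglyceride. Lactate dehydrogenase joins pyruvate to lactate, which fat tissue releases. Several steps have tissue-specific isoforms, of which PFKM, the M1 form of pyruvate kinase, ENO3 and PGAM2 are the forms of skeletal muscle.

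The number of probes per gene was 12 for LDHB, 6 for PGK1, 5 for TPI1, 3 for SLC2A4, 3 for PKM2, 2 for PFKM and 1 each for SLC2A1, HK2 and LDHA. Each probe is a DNA of 60 bases, and the array files give its start position in the transcript it was designed on. The files list no genome position for these probes. The 3 PKM2 probes and 1 PFKM probe are printed because the comparisons that follow name them, 5′ to 3′ and with no part marked.
PKM2, position 648: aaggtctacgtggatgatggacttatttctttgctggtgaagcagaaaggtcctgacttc
PKM2, position 932: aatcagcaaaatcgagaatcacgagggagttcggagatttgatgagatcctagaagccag
PKM2, position 1383: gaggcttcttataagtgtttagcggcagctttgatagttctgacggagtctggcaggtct
PFKM, position 1847: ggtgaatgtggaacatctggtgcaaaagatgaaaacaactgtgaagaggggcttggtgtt
The array files assign the PKM2 probes at 648 and 932 to a pair of Ensembl transcripts, and the probe at 1383 to only one of that pair. From knowledge of the human PKM gene, the bases of the probe at 1383 lie in the exon that distinguishes M1 from M2, in its M1 form, although the array calls all 3 probes PKM2. No file annotates that exon.

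Some probes share bases and are not independent measurements. The LDHB probes at 752 and 780 overlap by 32 bases, printed in capitals.
LDHB, position 752: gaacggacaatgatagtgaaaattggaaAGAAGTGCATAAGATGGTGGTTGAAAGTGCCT
LDHB, position 780: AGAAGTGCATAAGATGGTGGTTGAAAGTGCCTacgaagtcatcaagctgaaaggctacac
A pair of TPI1 probes at position 747 and a pair of LDHB probes at position 1229 have identical bases. Within an array, the difference between the identical probes varied with an SD of 0.06 log2 for TPI1 and 0.08 log2 for LDHB (n = 16 arrays). This SD holds the within-array error of 2 probes together, not that of 1 probe. Probes of 1 gene moved together over arrays, with Pearson r between 0.98 and 0.99 for the 10 pairs of TPI1 probes, 0.96 and 0.99 for the 15 pairs of PGK1 probes, 0.67 and 0.97 for the 66 pairs of LDHB probes, and 0.59 and 0.93 for the 3 pairs of SLC2A4 probes. The lowest SLC2A4 value joined the probes at 433 and 2375. The gene table of the pig reference lists 2 genes under the symbol LDHB, so signal from a near-identical copy cannot be told apart here.

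Levels are log2 processed signals minus the 75th percentile of the array, so that a level of 0 lies at that percentile. Where 1 probe stands for a gene, it is the one with the highest mean signal. Different probes bind with different strength, so a level, or the difference between 2 probes of an array, was read only by how it varied between arrays. Between 68.7% and 80.3% of spots were well above background per array, and each of the 4 slides held 2 arrays of each line. As a check of the tissue, 14 of 15 adipocyte markers were well above background on at least 8 arrays. One array stood apart before any comparison. On low-RFI replicate 8, TNNC1 and MYLPF, structural genes of the skeletal muscle fibre that all 16 arrays read well above background, were 10.9 and 10.2 log2 above the mean of the other 15 arrays. A list of 25 skeletal muscle markers without glycolysis genes, of which 17 were measured, averaged 8.39 log2 above the genes' own medians on that array. The same list lay between -0.30 and 1.90 on the other low-RFI arrays and between -0.22 and 1.16 on the high-RFI arrays. Line differences of the members are therefore given with and without low-RFI replicate 8. High-RFI replicate 5 was the lowest of the 16 arrays for SLC2A4, PFKM, TPI1, PGK1 and LDHA. That array also had the lowest adipocyte list, at -0.42, and the highest macrophage and T and NK cell lists, at 1.80 and 1.61, all as the mean of each gene's level minus its own median. The part of these cell types in the members' levels was not tested.

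The first comparison asked whether the lines differed in these genes. On average, 8 of the 9 genes were higher in low-RFI than in high-RFI tissue, and no difference passed the test. The 9 differences had a median of 0.24 log2, beside -0.0001 over all probes tested. With limma and Benjamini-Hochberg adjustment over 32097 probes, 0 of 34 member probes passed at an adjusted p of 0.05, and so did 0 of all probes (0.0%). At an unadjusted p under 0.05 there were again 0 of 34 member probes, against 3.68% of all probes. Without low-RFI replicate 8, 7 of 9 genes were higher in low-RFI tissue and the median was 0.11 log2, beside 0.01 over all probes, and 0 of 34 member probes reached an unadjusted p under 0.05, against 2.97% of all probes. The 95% confidence intervals of the 9 differences extended to either side by a median of 0.56 log2 with that array and of 0.48 log2 without it, so differences smaller than that were not detectable for most of these genes.

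**Figure D1:**
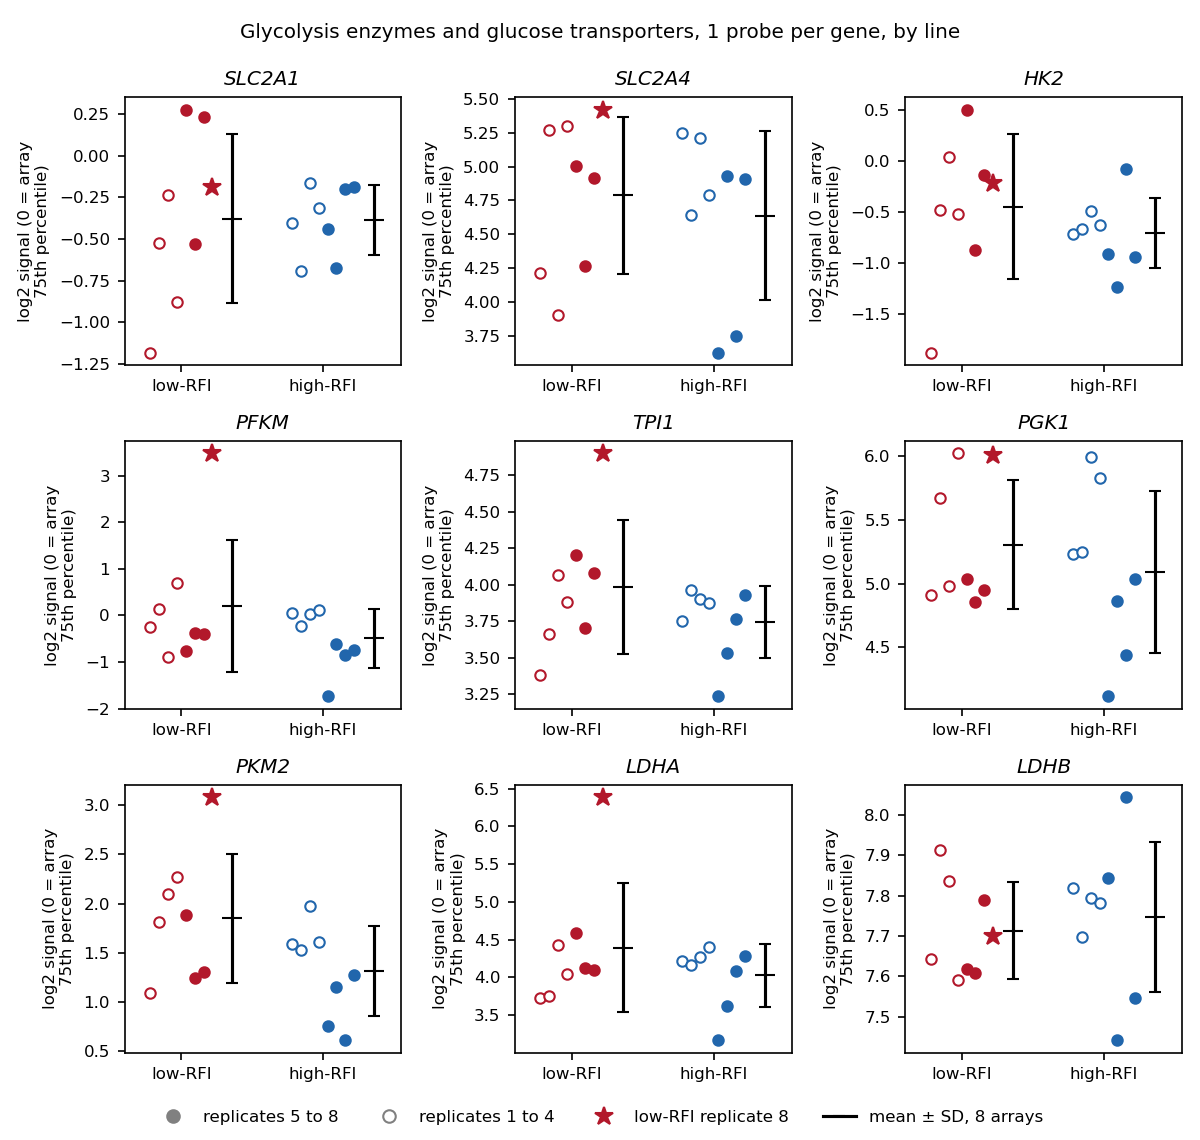
Log2 signal of 1 probe per gene on each array, low-RFI left and high-RFI right, with filled points for replicates 5 to 8, open points for replicates 1 to 4, a star for low-RFI replicate 8, and the mean ± SD of 8 arrays beside the points. The star stands apart for PFKM at 3.48 and for LDHA at 6.39, and the lines overlap for all 9 genes.

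Among the genes of glucose entry, SLC2A1 had a lowest, median and highest level of -1.18, -0.38 and 0.28 in low-RFI tissue, against -0.69, -0.36 and -0.16 in high-RFI tissue. The low-RFI arrays enclosed the whole range of the high-RFI arrays. Its means were -0.38 ± 0.51 in low-RFI and -0.38 ± 0.21 in high-RFI tissue (SD, n = 8 each), and the sign of the 0.0064 log2 between them turned when low-RFI replicate 8 was left out (-0.02). SLC2A4 ran from 3.91 over a median of 4.96 to 5.42 in low-RFI tissue, against 3.62, 4.85 and 5.25 in high-RFI tissue. Both lines held high and low arrays, and the difference was 0.15 ± 0.28 log2 (SE; limma adjusted p = 1.0) and 0.06 ± 0.29 log2 without low-RFI replicate 8. With 1 array left out it ran from 0.0047, without high-RFI replicate 5, to 0.28, without low-RFI replicate 3. HK2, which commits glucose to the cell, ran from -1.88 over -0.35 to 0.51 in low-RFI tissue, against -1.23, -0.69 and -0.07 in high-RFI tissue. The lowest and the highest HK2 level of all arrays were both low-RFI, and the difference was 0.26 ± 0.26 log2 (SE; limma adjusted p = 1.0) and 0.23 ± 0.28 log2 without low-RFI replicate 8. It was 0.46 log2 without low-RFI replicate 1, the lowest array, and 0.12 log2 without low-RFI replicate 5.

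PFKM, the muscle isoform of the enzyme that catalyses the committed step, ran from -0.88 over -0.31 to 3.48 in low-RFI tissue, against -1.74, -0.42 and 0.11 in high-RFI tissue. The highest level belonged to low-RFI replicate 8, and the next low-RFI array was at 0.70. The difference was 0.70 ± 0.51 log2 (SE; limma adjusted p = 1.0) on 16 arrays and 0.23 ± 0.28 log2 without that array. TPI1, which interconverts the triose phosphates, ran from 3.38 over 3.97 to 4.90 in low-RFI tissue, against 3.23, 3.82 and 3.97 in high-RFI tissue. Low-RFI replicate 8 was again highest, exceeding the average of its line mates by 1.05 log2. The line difference was 0.24 ± 0.18 log2 with it (SE; limma adjusted p = 1.0) and 0.11 ± 0.14 log2 without it. PGK1, which makes the first ATP of the pathway, ran from 4.86 over 5.01 to 6.02 in low-RFI tissue, against 4.11, 5.14 and 5.99 in high-RFI tissue. The low-RFI median was below the high-RFI median although the low-RFI mean was higher by 0.21 ± 0.27 log2 (SE; limma adjusted p = 1.0). This difference was 0.11 ± 0.27 log2 without low-RFI replicate 8, and with 1 array left out it ran from 0.069, without high-RFI replicate 5, to 0.34, without high-RFI replicate 3.

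PKM2, pyruvate kinase, which makes the last ATP of the pathway, ran from 1.10 over 1.85 to 3.08 in low-RFI tissue, against 0.61, 1.40 and 1.98 in high-RFI tissue. Among the 34 probes it had the smallest limma p, unadjusted p = 0.0601 and adjusted p = 1.0. The difference was 0.54 ± 0.27 log2 (SE) on 16 arrays and 0.36 ± 0.22 log2 without low-RFI replicate 8. LDHA, the lactate dehydrogenase subunit that predominates in glycolytic muscle, ran from 3.73 over 4.11 to 6.39 in low-RFI tissue, against 3.16, 4.19 and 4.41 in high-RFI tissue. Apart from low-RFI replicate 8, every low-RFI array was at or below 4.59, and the difference was 0.37 ± 0.32 log2 with it (SE; limma adjusted p = 1.0) and 0.08 ± 0.19 log2 without it. Without high-RFI replicate 5 it was 0.25 log2. LDHB, the subunit that predominates in heart, had the smallest spread of the 9 probes that stand for a gene, with an SD of 0.12 in low-RFI and 0.19 in high-RFI tissue (n = 8 each). It ran from 7.59 over 7.67 to 7.91 in low-RFI tissue, against 7.44, 7.79 and 8.04 in high-RFI tissue, with a difference of -0.03 ± 0.09 log2 (SE; 95% confidence interval -0.22 to 0.15), and likewise -0.03 ± 0.10 log2 without low-RFI replicate 8. The 12 LDHB probes divided evenly, 6 of them higher in low-RFI tissue, while all other probes of the set were higher in low-RFI tissue on 16 arrays. The spread of LDHB depended on the probe. At position 530 the SD was 0.27 in low-RFI and 0.28 in high-RFI tissue, where SLC2A1 had 0.21 and TPI1 0.25. At position 1235 it was 0.14 in low-RFI and 0.15 in high-RFI tissue.

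**Figure D2:**
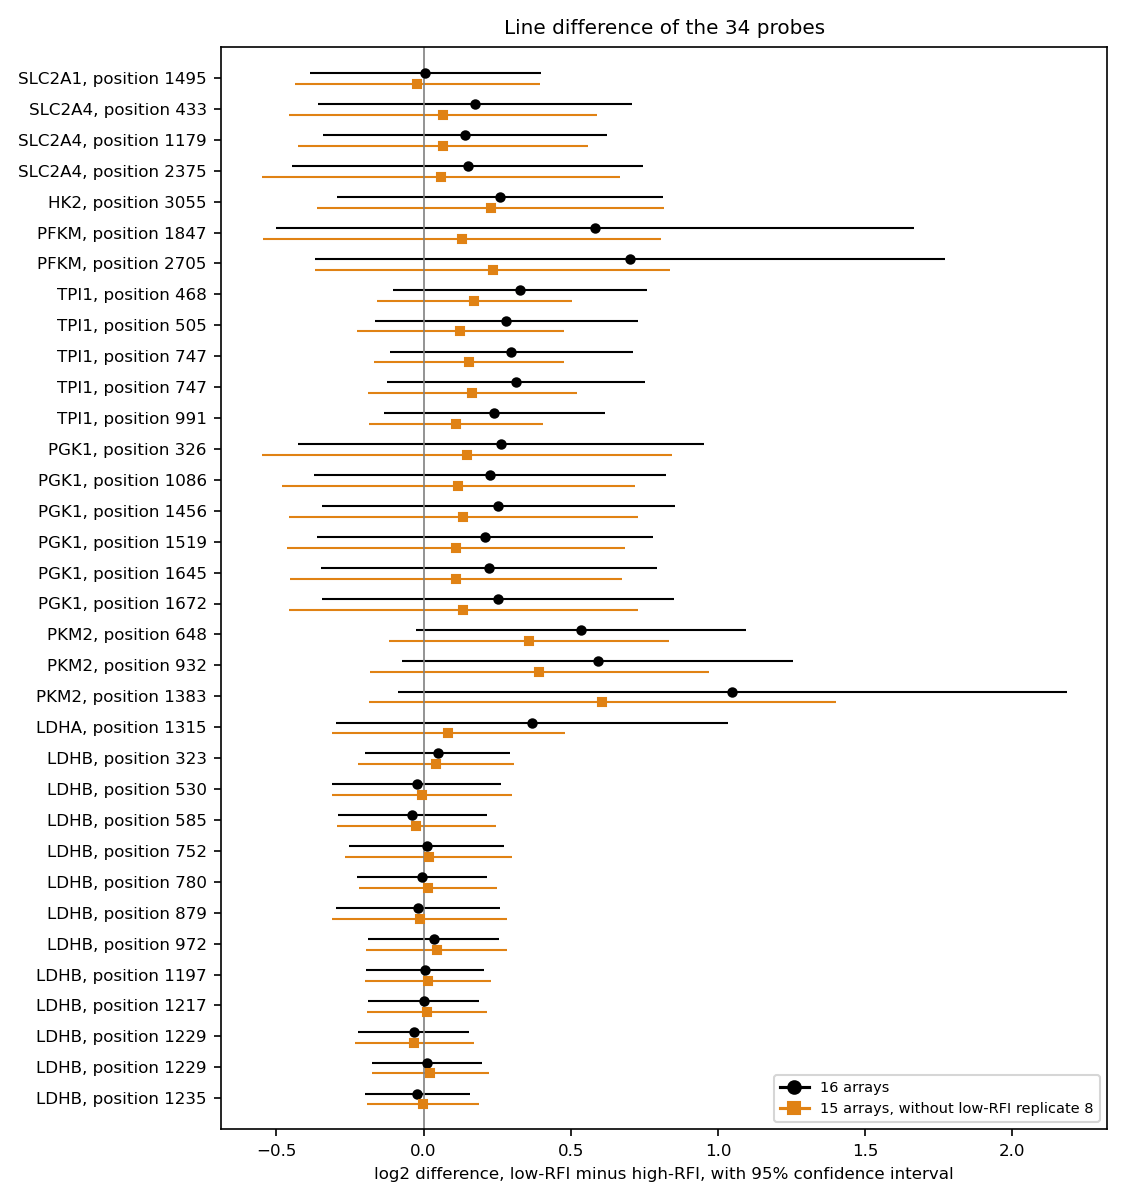
Difference between the lines (log2, low-RFI minus high-RFI) of the 34 probes with its 95% confidence interval, on 16 arrays (circles) and on the 15 arrays without low-RFI replicate 8 (squares). All intervals include 0, the 12 of LDHB are the narrowest on 16 arrays, and the differences of PFKM, PKM2 and LDHA shrink without that array.

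Isoforms were read as the difference between 2 probes on the same array. On low-RFI replicate 8, the M1-exon probe of PKM2 at position 1383 minus the probe at 932 was -0.24 log2. On the other 7 low-RFI arrays this difference was between -2.59 and -1.61, and on the 8 high-RFI arrays between -2.69 and -1.91. Low-RFI replicate 8 was thus 2.06 log2 above the mean of the other 15 arrays, whose SD was 0.35. Against the probe at 648 it was 2.26 log2 above the mean of the others. The 2 probes at 932 and 648 kept their difference on that array, at -0.21, beside -0.54 to -0.08 on the other low-RFI arrays and -0.71 to -0.21 on the high-RFI arrays. This comparison of PKM2 probes was chosen after their annotation and values had been seen and was not tested. The muscle markers given above were highest on the same array. The next highest array for position 1383 minus 932 was low-RFI replicate 4, at -1.61, where the muscle list was at -0.30. Low-RFI replicate 6 and high-RFI replicate 7, with the muscle list at 1.90 and 1.16, were at or below -2.315. The part of muscle RNA in the PKM2 difference was not tested.

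LDHA minus LDHB was -3.32 ± 0.88 in low-RFI and -3.72 ± 0.45 in high-RFI tissue (SD, n = 8 each). The change of 0.40 log2 did not pass a two-sided exact permutation test (p = 0.308, and 0.644 after Benjamini-Hochberg over 3 pairs). Low-RFI replicate 8 was at -1.32, the other low-RFI arrays between -4.16 and -3.02, and the high-RFI arrays between -4.68 and -3.26. Without that array the change was 0.12 log2 (exact permutation test, p = 0.613). SLC2A4 minus SLC2A1, the insulin-responsive against the basal transporter, was 5.17 ± 0.68 in low-RFI and 5.02 ± 0.66 in high-RFI tissue, a change of 0.14 log2 (exact permutation test, p = 0.673, adjusted p = 0.673). It was 0.08 log2 without low-RFI replicate 8 (exact permutation test, p = 0.824) and -0.01 log2 without high-RFI replicate 7. PGAM2 minus PGAM1, the muscle against the general phosphoglycerate mutase, with PGAM2 well above background on 14 arrays, was -6.22 ± 3.69 in low-RFI and -7.56 ± 1.11 in high-RFI tissue. It changed by 1.34 log2 with low-RFI replicate 8 (exact permutation test, p = 0.429, adjusted p = 0.644), which was at 2.41, and by 0.11 log2 without it. The 5 other isoform pairs looked for lacked a measured probe under the name of at least 1 partner.

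**Figure D3:**
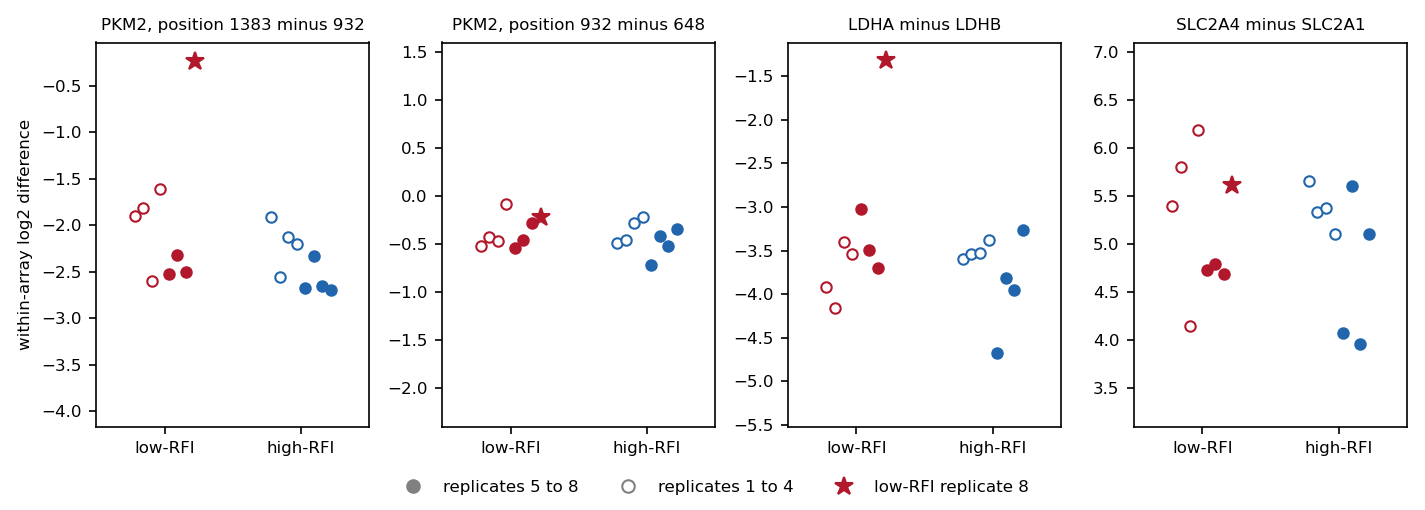
Difference between 2 probes on the same array (log2) for PKM2 at 1383 minus 932, PKM2 at 932 minus 648, LDHA minus LDHB and SLC2A4 minus SLC2A1, low-RFI left and high-RFI right. The star, low-RFI replicate 8, is at -0.24 and -1.32 for PKM2 at 1383 minus 932 and for LDHA minus LDHB, above the 15 other arrays, and lies among them for the other two.

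The replicate numbers in the sample titles were also used to read replicates 5 to 8 against replicates 1 to 4, as the titles give these numbers no further meaning. Within replicates 5 to 8, 8 of 9 genes were higher in low-RFI than in high-RFI tissue, beside 49.9% of all probes. Their median was 0.61 log2, beside -0.0004 over all probes. This set holds low-RFI replicate 8 and also high-RFI replicate 5, the lowest array for SLC2A4, PFKM, TPI1, PGK1 and LDHA. No fit left out both arrays, so their joint part in these differences was not tested. Within replicates 1 to 4, only PKM2 was higher in low-RFI tissue, by 0.14 log2, and the median was -0.13 log2, beside -0.007 over all probes. No probe passed adjustment in either set of replicates (limma, 0 of 34 member probes and 0.0% of 32097). At an unadjusted p under 0.05, replicates 1 to 4 held 0 of 34 member probes, against 6.34% of all probes, and replicates 5 to 8 held 11 of 34, against 5.79%. Without low-RFI replicate 8, replicates 5 to 8 held 0 of 34, against 4.08%. The median difference there was 0.42 log2, beside 0.03 over all probes. The 11 probes were the 5 of TPI1, the 3 of PKM2, 2 of PGK1 and that of LDHA. For TPI1 the difference within replicates 5 to 8 was 0.61 ± 0.22 log2 (SE; limma unadjusted p = 0.0167, adjusted p = 0.856), and within replicates 1 to 4 it was -0.13 ± 0.22 log2.

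The test of the difference between the 2 sets of replicates, the interaction of line and set, called 0 of 34 member probes and 0 of all probes (limma; 0.0%). At an unadjusted p under 0.05 it held 6 of 34 member probes, against 6.81% of all probes, and 1 of 34 without low-RFI replicate 8, against 5.68%. By gene, with 1 probe each, it held 2 of 9 on 16 arrays and 1 of 9 without that array. It was positive for 8 of 9 genes, with a median of 0.78 log2 on 16 arrays and 0.54 log2 without low-RFI replicate 8, beside 0.003 and 0.02 over all probes. LDHA had an interaction of 1.28 ± 0.57 log2 (SE; limma adjusted p = 0.725) on 16 arrays and of 0.75 log2 (adjusted p = 0.856) without low-RFI replicate 8. That of LDHB was -0.01 ± 0.18 log2 (SE).

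Read over both lines, replicates 5 to 8 differed from replicates 1 to 4 at 5.19% of all probes (limma; 1.96% higher and 3.22% lower), and 0 of 34 member probes passed. At an unadjusted p under 0.05 it held 7 of 34 member probes, against 23.7% of all probes. Without low-RFI replicate 8, 4.04% of all probes passed (2.36% lower), and 4 of 34 member probes did, all lower in replicates 5 to 8, with 11 of 34 against 23.6% at an unadjusted p under 0.05. These were PFKM at 1847, PGK1 at 326 and 1086, and PKM2 at 1383, none of them the probe that stands for its gene, for which the smallest adjusted p was 0.0624 (PGK1). PFKM at 1847 was at -3.00, -2.32, -2.25 and 1.54 in low-RFI replicates 5 to 8 and at -3.32, -2.35, -2.68 and -2.66 in high-RFI replicates 5 to 8. In replicates 1 to 4 it was at -1.82, -1.56, -2.60 and -0.96 in low-RFI and at -1.71, -1.71, -1.58 and -1.62 in high-RFI tissue. The 2 sets of replicates overlapped, through low-RFI replicate 8, at 1.54, and low-RFI replicate 3, at -2.60. This probe had a median processed signal of 111, the lowest of the 34 probes. Its difference, replicates 5 to 8 minus 1 to 4, was -0.94 ± 0.22 log2 without low-RFI replicate 8 (SE; limma adjusted p = 0.034) and -0.44 ± 0.50 log2 with it (adjusted p = 0.637).

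PGK1 at 1519, the probe that stands for the gene, was at 5.03, 4.86, 4.95 and 6.01 in low-RFI and at 4.11, 4.86, 4.44 and 5.03 in high-RFI replicates 5 to 8. In replicates 1 to 4 it was at 4.91, 5.67, 4.99 and 6.02 in low-RFI and at 5.24, 5.25, 5.99 and 5.83 in high-RFI tissue. High-RFI replicates 5 to 8 were all below high-RFI replicates 1 to 4, and the 2 low-RFI sets overlapped. Its difference was -0.57 ± 0.22 log2 (SE; limma adjusted p = 0.136). On 16 arrays, 26 of 34 member probes had a lower mean in replicates 5 to 8, beside 54.8% of all probes. They were all probes of SLC2A4, PFKM, PGK1, PKM2 and LDHB, 12 of them of LDHB, and probes of 1 gene are not independent. All probes of SLC2A1, HK2, TPI1 and LDHA had a higher mean there. By gene, with 1 probe each, 4 of 9 had a higher mean in replicates 5 to 8, beside 45.2% of all probes. SLC2A1 was higher by 0.33 ± 0.16 log2 (SE; limma adjusted p = 0.208). The adipocyte markers, of which 14 of 15 were measured, had a median of -0.14 log2 in replicates 5 to 8 (range -0.42 to 0.25) and of 0.23 log2 in replicates 1 to 4 (range -0.25 to 0.36). The T and NK cell markers, of which 8 of 11 were measured, had a median of 0.27 in replicates 5 to 8 (range -1.02 to 1.61) and of -0.13 in replicates 1 to 4 (range -0.47 to 0.53). The smooth muscle markers, of which 4 of 7 were measured, had a median of -0.03 in replicates 5 to 8 (range -0.69 to 1.13) and of 0.45 in replicates 1 to 4 (range -0.25 to 1.23). The endothelial markers, 8 of 10 measured, had medians of -0.13 (range -0.39 to 0.24) and 0.10 (range -0.30 to 0.19) in replicates 5 to 8 and in replicates 1 to 4. The part of these cell types in the differences between the sets of replicates was not tested, and in bulk tissue fewer cells of a type and less RNA per cell cannot be told apart.

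**Figure D4:**
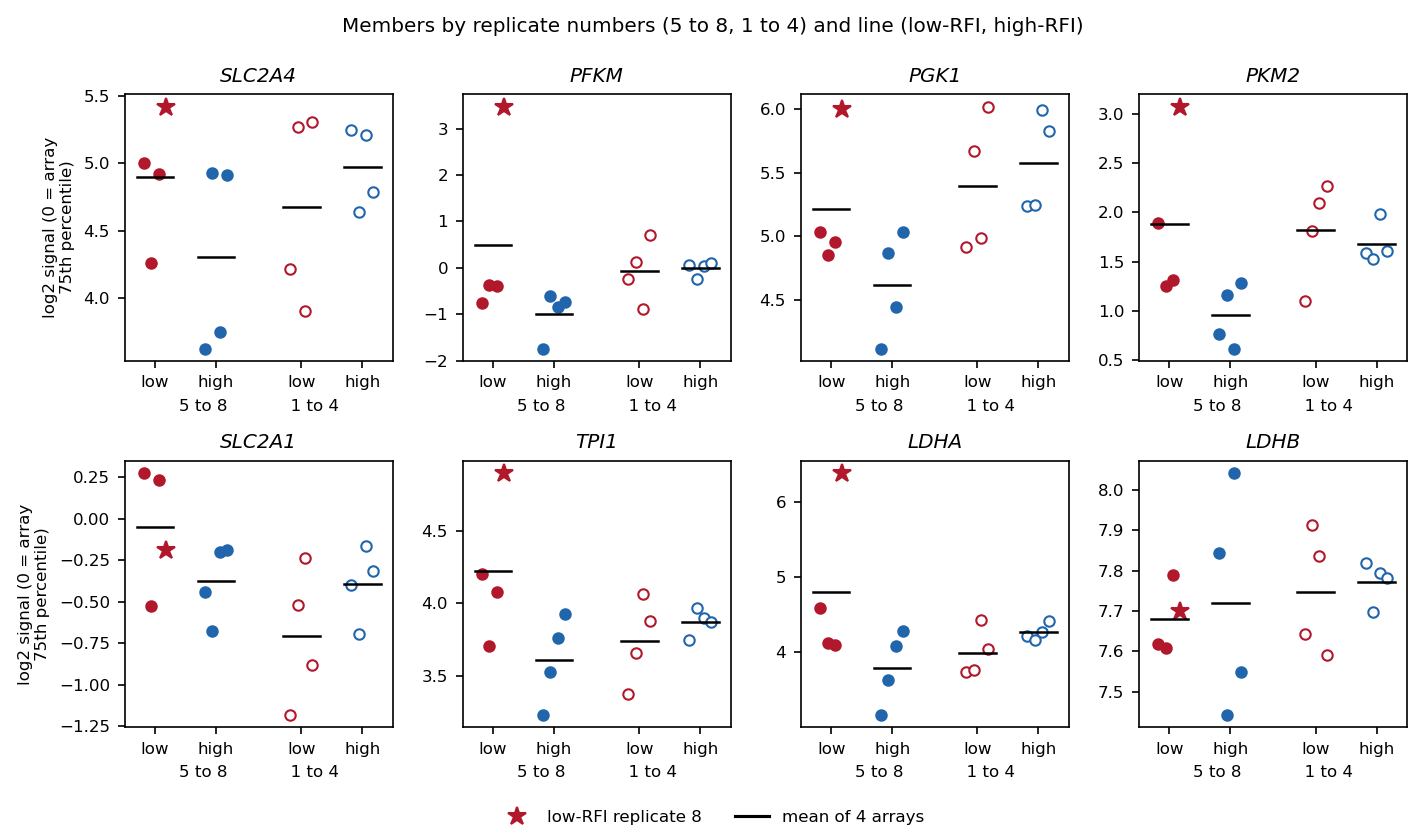
Log2 signal of 8 members in replicates 5 to 8 (filled, left) and replicates 1 to 4 (open, right), low-RFI left of high-RFI within each, with the mean of 4 arrays as a line and low-RFI replicate 8 as a star. For all but LDHB the low-RFI mean is above the high-RFI mean in replicates 5 to 8, and for all but PKM2 it is below in replicates 1 to 4.

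Several members moved together over the 16 arrays. Of 36 pairs, 13 had a Pearson r that passed a permutation test after Benjamini-Hochberg over the 36, all of them positive, and r ranged from -0.33 to 0.94. On the 15 arrays without low-RFI replicate 8, 8 pairs passed, of which 7 had passed on 16 arrays. The 6 pairs that passed on 16 arrays only joined PFKM to TPI1, PKM2 and LDHA, and PKM2 to SLC2A4, TPI1 and LDHA. They did not all change alike. For SLC2A4 and PKM2, r was 0.65 on 16 arrays and 0.61 on 15 (permutation p adjusted 0.0598 on 15). For PFKM and PKM2 it was 0.80 and 0.61 (permutation p adjusted 0.0598 on 15). For PFKM and LDHA, r was 0.82 on 16 arrays with Spearman rho 0.15, and 0.33 without low-RFI replicate 8. On those 15 arrays it was 0.83 over the 8 high-RFI arrays and -0.62 over the 7 low-RFI arrays, and 0.66 over the 7 arrays of replicates 5 to 8 and -0.29 over the 8 of replicates 1 to 4. The 7 pairs shared by both sets of arrays were SLC2A1 with HK2, HK2 with TPI1, TPI1 with LDHA, SLC2A4 with PFKM and with PGK1, and PGK1 with PFKM and with PKM2. LDHB passed with no other member. On the 15 arrays, the adipocyte list had a Pearson r of 0.81 with PGK1, 0.79 with SLC2A4, 0.77 with PFKM and 0.64 with PKM2, and between 0.17 and 0.53 with the others. The smooth muscle list had an r of -0.57 with SLC2A1 and -0.60 with HK2. For the macrophage list, r was -0.55 with PFKM and with LDHA and -0.53 with TPI1. For the T and NK cell list it was -0.54 with SLC2A4 and with PFKM, and for the endothelium list -0.51 with TPI1. These values share the arrays and carry no test, and the part of these cells in the correlated pairs was not tested.

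TPI1 and LDHA had the highest r, 0.94 on 16 arrays (Spearman rho 0.81; permutation p adjusted 0.00072 and 0.00387). Without low-RFI replicate 8 their r was 0.89, and without the 2 arrays farthest from the median of TPI1 it was 0.83 (permutation p adjusted 0.0054). Within replicates 5 to 8 it was 0.93 over 7 arrays and within replicates 1 to 4 it was 0.82 over 8 arrays, both without low-RFI replicate 8. PFKM and PGK1 had an r of 0.74 on 16 arrays (Spearman rho 0.81; permutation p adjusted 0.00192 and 0.00387) and of 0.88 without low-RFI replicate 8, and of 0.83 without the 2 arrays farthest from the median of PFKM. PGK1 and PKM2 had an r of 0.81 (Spearman rho 0.86; permutation p adjusted 0.00192 and 0.00144), and of 0.75 without the 2 farthest arrays. These were the 3 pairs that passed on 16 arrays, on 15 arrays and without the 2 farthest arrays. With low-RFI replicate 8 and the 2 farthest arrays all left out, 13 arrays remained and 2 pairs passed, TPI1 with LDHA (r = 0.79) and PFKM with PGK1 (r = 0.78), while PGK1 with PKM2 had an r of 0.70 (permutation p adjusted 0.0737). SLC2A1 and HK2 had an r of 0.79 on 16 arrays (Spearman rho 0.64; permutation p adjusted 0.00317 and 0.0282) and of 0.52 without the 2 arrays farthest from the median of SLC2A1 (permutation p adjusted 0.217). Without low-RFI replicate 8 it was 0.87 within replicates 5 to 8 and 0.77 within replicates 1 to 4, and 0.86 over the low-RFI and 0.54 over the high-RFI arrays. The transporters SLC2A4 and SLC2A1 had an r of 0.13 (Spearman rho 0.16; permutation p adjusted 0.770 and 0.741).

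**Figure D5:**
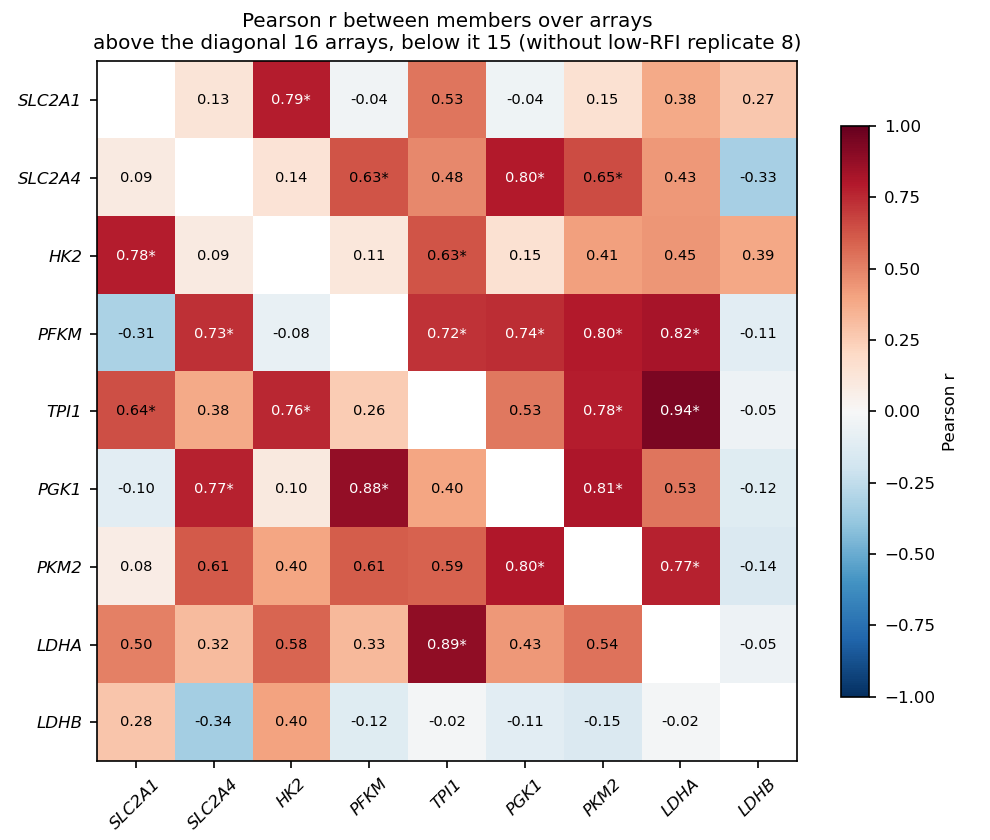
Pearson r between the 9 genes over arrays, above the diagonal on 16 arrays and below it on the 15 arrays without low-RFI replicate 8, with a star where the permutation p adjusted over 36 pairs was under 0.05. TPI1 and LDHA reach 0.94 and 0.89, and the LDHB row and column hold no star.

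Among 4523 named genes, those whose level was most like a member's over the 15 arrays without low-RFI replicate 8 were taken as the 3 with the highest Pearson r. For SLC2A4 they were BCKDHB (r = 0.94), MMAB (0.94) and the carbonic anhydrase CA3 (0.93). BCKDHB is a subunit of the enzyme that breaks down branched-chain keto acids, and MMAB is an enzyme of cobalamin metabolism. CA3 is on the muscle list, but its level was highest on low-RFI replicate 4. On low-RFI replicate 8 it was 0.81 log2 above the mean of the other 15 arrays. For TPI1 the 3 genes were ATP5B (0.91) and ATP5J2 (0.90), subunits of the mitochondrial ATP synthase, and NDUFB9 (0.89), a subunit of respiratory complex I. For PKM2 they were SNTB1 (0.88), COX7A2 (0.87), a subunit of cytochrome c oxidase, and ACYP1 (0.86). For PGK1 they were GPN3 (0.95), NFS1 (0.95), which supplies sulphur for iron-sulphur clusters, and FDPS (0.94), an enzyme of the mevalonate pathway. For HK2 they were TCP1 (0.94), the lipase PNPLA2 (0.89), one of the adipocyte markers, and LEAP2 (0.89), and for LDHA they were TPI1 (0.89), PFDN2 (0.87) and DYNLRB1 (0.87). For PFKM they were PTRHD1 (0.93), SGCB (0.93) and DNAJC12 (0.92), and for SLC2A1 they were DICER1 (0.85), RNF185 (0.84) and WDR46 (0.84). LDHB had the lowest values, with ODF4 (0.80), GPR81 (0.77), the receptor for lactate on adipocytes, and BAIAP2L2 (0.72). All these genes were read from the same arrays as the members, and the correlations carry no test.

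Genes around the pathway showed no line difference that passed (limma, 0 called in each of 6 lists, as for all probes). Of 18 other glycolytic enzymes, 5 were measured, all 5 higher in low-RFI tissue, with a median of 0.09 log2. The smallest p among them belonged to the muscle enolase ENO3 (1.11 ± 0.87 log2, SE; limma unadjusted p = 0.219) and to PGAM2 (1.40 ± 1.22 log2), which were 0.19 and 0.16 log2 higher without low-RFI replicate 8. Of 14 other sugar and lactate carriers, 6 were measured and 3 were higher in low-RFI tissue, with SLC2A8 at -0.25 ± 0.14 and SLC2A3 at 0.25 ± 0.18 log2 (SE). Of 23 genes that control glycolysis or the entry of pyruvate into mitochondria, 15 were measured and 8 were higher in low-RFI tissue, with ARNT, the partner of hypoxia-inducible factors, at -0.11 ± 0.08 and TXNIP, which restrains glucose uptake, at -0.18 ± 0.16 log2 (SE). Of 21 genes of glycogen, pentose phosphate and glycerol phosphate, 10 were measured and 6 were higher in low-RFI tissue, with PPP1R3D at -0.12 ± 0.10 and RPIA at 0.10 ± 0.11 log2 (SE). Only 3 of 13 genes of the insulin signal to SLC2A4 were measured, all 3 higher in low-RFI tissue, with IRS1 at 0.13 ± 0.21 and AKT1 at 0.06 ± 0.19 log2 (SE).

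Of 13 hypoxia targets outside glycolysis, 10 were measured and 4 were higher in low-RFI tissue, with a median of -0.06 log2. ADM, which encodes the vasodilator adrenomedullin, was 0.57 ± 0.16 log2 higher (SE; limma unadjusted p = 0.00216, adjusted p = 1.0), and P4HA1, a subunit of collagen prolyl 4-hydroxylase, 0.41 ± 0.14 log2 higher (unadjusted p = 0.0115, adjusted p = 1.0). They were the only 2 of the 49 genes in these lists with an unadjusted p under 0.05, against 3.68% of all probes. Between replicates 5 to 8 and replicates 1 to 4, 1 of these 49 genes passed, against 5.19% of all probes. MYC, a transcription factor that can drive glycolytic genes, was 0.72 ± 0.17 log2 higher in replicates 5 to 8 (SE; limma adjusted p = 0.0314). Its means were 0.70 and -0.02 in replicates 5 to 8 and 1 to 4, and its adjusted p was 0.0514 without low-RFI replicate 8. With an alternative background correction (normexp), 0 probes passed as higher in replicates 5 to 8, so MYC did not pass there.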

How the data were processed

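RNA of the 16 pigs had been isolated with Trizol and silica columns and labelled with 1 dye, per the labels' protocols. The deposited processed intensities came from Feature Extraction 10.7.3.1, which subtracted background and removed spatial trends on each array without scaling arrays to each other, per the file headers. The deposited mean and background intensities carried no correction. The deposited log2 values equalled the log2 processed signal minus a median over the 28963 spots listed there, as checked against the scanner files, and their processing names R 2.10.0, per the submitters' processing notes.

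From 43803 non-control spots, flagged outlier spots were left out, spots of a probe were averaged, and the array's 75th percentile was subtracted from log2. A probe was kept when well above background on 8 or more arrays (32216 probes) and with 6 or more values in each line (32097). No spot was saturated. Of these, 10711 carried 1 of 4632 gene symbols, from the array's own names or, through gene IDs and RefSeq accessions, from the Sscrofa11.1 gene list. Lines and sets of replicates (5 to 8, 1 to 4) were fitted with limma 3.58.1 in R 4.3.3 (line alone, or line by set), two-sided, with Benjamini-Hochberg over all kept probes and a threshold of 0.05. The fitting was tested on simulated data. Isoform pairs were compared by exact permutation, and correlations by 100000 permutations (scipy 1.17.1). Alternatives covered scaling, background correction, filters, slide, replicate number, probes and each array left out. The labels do not say whether pigs shared a litter, and the number of arrays limits the precision. Members and gene lists were chosen with earlier results of these data known. Named genes are all members with all probes, the 2 genes of smallest p in each list where none passed, and for each member the 3 genes most like it; MYC was named after its value was seen. Red blood cell markers could not be read (1 of 8 on the array, none kept). The skin epithelium list was at most 4.12, on high-RFI replicate 6, the macrophage and T and NK cell lists at most 1.80 and 1.61, on high-RFI replicate 5, and the endothelium, smooth muscle and fibroblast lists at most 0.24, 1.23 and 0.57.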

Additional observations from a re-analysis of the deposited data

Results flagged for a closer look

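In 4 of 26 groups of 8 arrays checked, 1 array lay farther from the others than Dixon's 95% limit for a group of that size allows, and in all 4 it was low-RFI replicate 8. Chance alone flags about 1 in 20 groups, but these groups share arrays and genes. The flags are not independent, as LDHA enters both its own group and LDHA minus LDHB, and their count carries no test. PFKM was at 3.48 on that array, where the other low-RFI arrays lay between -0.88 and 0.70. LDHA was at 6.39, beside 3.73 to 4.59 on the others. The within-array difference LDHA minus LDHB was -1.32, beside -4.16 to -3.02, and PGAM2 minus PGAM1 was 2.41, beside -8.56 to -4.91. The skeletal muscle markers TNNC1 and MYLPF were highest on the same array, and their part in these values was not tested.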

How the results depend on the processing

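Under every alternative tried, no member passed in the comparison of the lines, and all probes gave a count of 0, except 1 probe without low-RFI replicate 4 (range 0 to 1 with 1 array left out). Within replicates 1 to 4 the count was also 0 to 1. The normexp background correction moved the median line difference of all probes to -0.12 log2, while LDHB was at 0.13, positive like the other 8 members. With 1 array left out, the line difference of SLC2A1 ran from -0.087 to 0.12 and that of LDHB from -0.077 to 0.0089. Within slide 3 the line difference was -0.12 for SLC2A1, -0.18 for SLC2A4, -0.067 for HK2, -0.26 for PFKM and -0.22 for PGK1. Within slide 4 that of SLC2A1 was -0.36, and within slide 1 that of LDHB was 0.22. LDHB was also positive without low-RFI replicates 6 and 8 and high-RFI replicate 7, the 3 arrays with muscle genes (0.028), and at positions 323 (0.048), 752 (0.011), 972 (0.035), 1197 (0.0057), 1217 (9.4e-05) and 1229 (0.011). Its interaction was 0.0063 in the deposited table and 0.12 without the 3 arrays, and ran from -0.10 to 0.10 with 1 array left out.

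The count of probes that differed between replicates 5 to 8 and 1 to 4 was 1665 in the reported fit, 848 with no filter on dim probes, 5 with normexp, 347 without the 3 arrays, and 573 to 4719 with 1 array left out, the lowest without low-RFI replicate 2 and the highest without low-RFI replicate 3. With 1 array left out, that difference ran from -0.013 to 0.31 for HK2, from -0.0037 to 0.20 for TPI1 and from -0.10 to 0.28 for LDHA, which was -0.11 without the 3 arrays. Without them SLC2A4 minus SLC2A1 differed by -0.021 and PGAM2 minus PGAM1 by -0.023 between the lines, and SLC2A4 minus SLC2A1 ran from -0.010 to 0.29 with 1 array left out. Correlated pairs numbered 13 in the reported set, 8 without low-RFI replicate 8, 8 with quantile scaling and 3 without the 2 farthest arrays. The cause of these shifts was not tested. With the replicate number as a block (replicate block), the line comparison called 0 probes, as it did without the block. At an unadjusted p under 0.05, limma held 1542 probes with the block and 1181 without it. Same-numbered pigs correlated between -0.30 and 0.32, and whether the numbers pair the samples was not tested.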
